A study of Mus musculus with 13 samples.

Results

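The interleukin-17 (IL-17) and interleukin-22 (IL-22) axis was followed through 8 genes, namely the cytokines Il17a, Il17f and Il22, the IL-23 subunit Il23a with its receptor Il23r, the receptors Il17ra and Il22ra1, and Il22ra2, which encodes the soluble IL-22 binding protein. They were taken as the rows of the feature table that carry these symbols, which makes 8 of the 32285 genes counted. The data were 13 droplet-based single-cell RNA sequencing libraries, 10 of colon tumors and 3 of adjacent mucosa, from 3 C57BL/6J mice of the genotype ApcMin/+; p16cis/cis. The ApcMin allele is a germline truncation of the Apc tumor suppressor that gives rise to intestinal adenomas, and the p16cis allele carries an engineered element that attracts DNA methylation to the p16 promoter. Both alleles, and a supplemented diet (more folic acid, vitamin B12, betaine and choline), given from before conception and throughout life, were shared by all libraries, so neither the genotype nor the diet was a comparison here. Mouse A, aged 24 weeks, gave 4 tumors (tumors 5 to 8) and mucosa 2. Mouse B, aged 23 weeks, gave 2 tumors (tumors 9 and 10) and mucosa 3, and mouse C, aged 20 weeks, gave 4 tumors (tumors 1 to 4) and mucosa 1. Tumors of one mouse share an animal, and p-values over libraries measure the spread between these samples.

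As background, IL-23 is a heterodimer of the subunits encoded by Il23a and Il12b. It is made mostly by myeloid cells and sustains type 17 lymphocytes, among them Th17 cells, IL-17-producing γδ T cells and group 3 innate lymphoid cells, which release IL-17A, IL-17F and IL-22. IL-17A and IL-17F act through IL-17RA paired with IL-17RC and are known in the gut for inducing neutrophil-attracting chemokines, whereas IL-22 acts through IL-22RA1 paired with IL-10RB on epithelial cells, where it induces antimicrobial proteins through STAT3. In the mouse genome (GRCm38, GENCODE vM21), Il17a (chr1:20730905-20734496) and Il17f (chr1:20777146-20790617) are neighbors, Il22 (chr10:118204942-118210047), Il23a (chr10:128296139-128298752) and Il22ra2 (chr10:19621998-19634681) lie on chromosome 10, Il23r (chr6:67422932-67491855) and Il17ra (chr6:120463247-120487559) on chromosome 6, and Il22ra1 (chr4:135728172-135752140) on chromosome 4.

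After filters on UMIs, genes, mitochondrial share and doublets, 108495 of 137591 barcodes were retained as cells, 85953 from tumors and 22542 from mucosa. The median number of unique molecular identifiers (UMIs, counted transcript molecules) per cell was 3569 to 5006 in tumors and 7223 to 9453 in mucosa. The tissues differed in makeup, with epithelial clusters holding 16.4% to 26.6% of cells in tumors and 50.7% to 74.2% in mucosa, and monocytes, macrophages and dendritic cells (mononuclear phagocytes) holding 21.7% to 33.6% against 0.447% to 1.42%. Neutrophil clusters held 21.8% to 36.3% of cells in tumors and 0% to 0.447% in mucosa. Tumors were dissociated with a tumor dissociation kit and mucosa with EDTA and TrypLE, so tissue and dissociation cannot be told apart. All 16 genes of a dissociation stress list were higher in tumors in the sums over all cells, and their part in the results was not tested. The RNA of all 13 libraries was of the male type, which went against the sex in the labels of 7, and sex was not used. No pair of libraries shared more than 61 cell barcodes, or 0.561% of the smaller library.

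Summed over all cells of each library, 5 of the 8 genes were higher in tumors by edgeR's quasi-likelihood test (adjusted p under 0.05) and none was lower. These were Il23a, Il17a, Il23r, Il22 and Il17ra, while Il17f, Il22ra1 and Il22ra2 did not pass. The 8 genes are to be read against a background in which 70% of the 17422 genes tested were called, with 36% called higher and 34% lower. The median log2 fold change was 2.87 over the 8 genes and 0.02 over all genes tested. Only Il17a, Il17ra and Il22ra1 had 10 or more UMIs in each of the 3 mucosa libraries. The other 5 genes passed the filter on low counts with the help of the tumors, and a gene that passes through the tumors alone has to differ, so neither the count nor this median is support. In 4 genes (Il17a, Il23a, Il23r and Il17ra) every tumor library lay above every mucosa library, which held for 26.8% of all genes tested. Levels are given as CPM, the UMIs of a gene per 1000000 UMIs of the cells summed. In such sums, more cells of a type and more RNA per cell cannot be told apart.

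**Figure D1:**
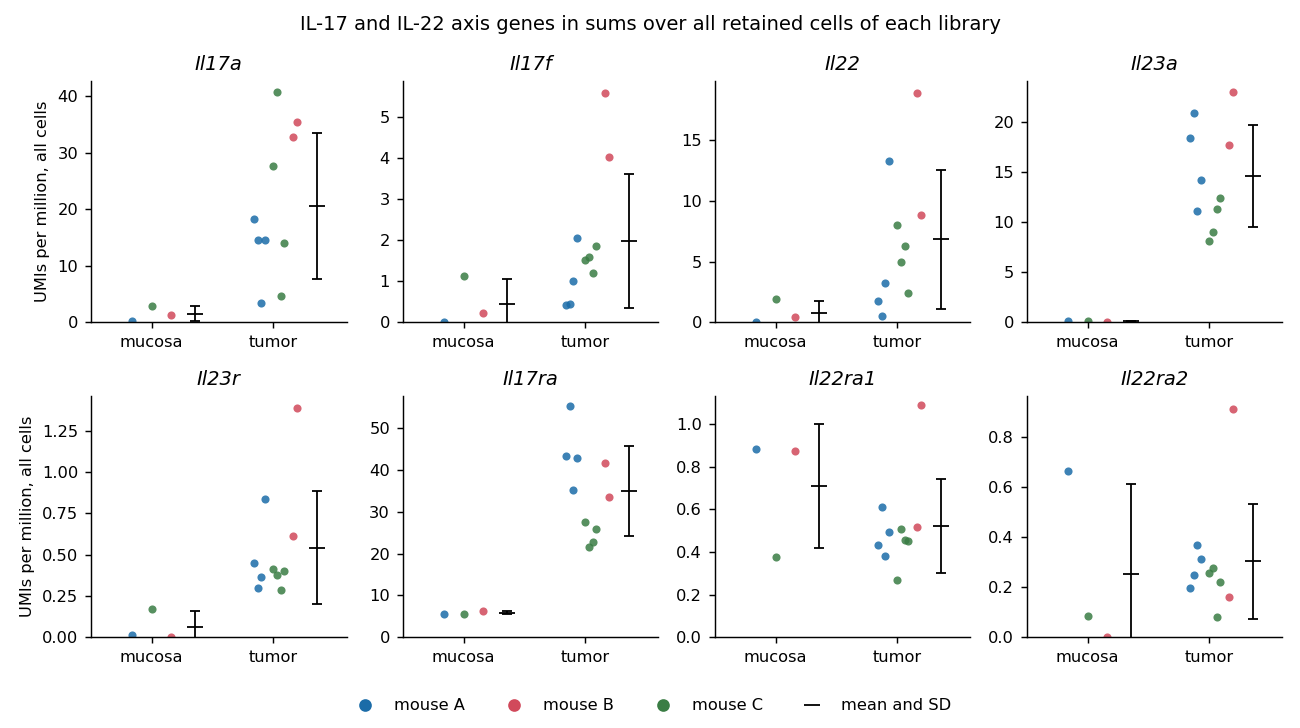
Level of each of the 8 genes in every library, in CPM over all retained cells, with a linear axis of its own for each gene, one point per library colored by mouse, and bars for the mean and SD, cut off at 0. The points of Il17a, Il23a, Il23r and Il17ra do not overlap between the tissues, whereas those of Il17f, Il22, Il22ra1 and Il22ra2 do.

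Il17a encodes the cytokine IL-17A. Its level over all cells was 2.92, 0.242 and 1.38 CPM in mucosa 1, 2 and 3, and 3.42 to 40.6 CPM in the 10 tumors, with a median of 16.4. The lowest tumors (7 and 3, at 3.42 and 4.71 CPM) were still above the highest mucosa, and tumor 2 was the highest. The tumor mean was 20.6 ± 12.9 CPM (SD, n = 10) against 1.52 ± 1.35 (SD, n = 3), a log2 fold change of 3.82 (SE 0.91, edgeR adjusted p = 0.00188).

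Il17f, the neighboring gene on chromosome 1 that encodes IL-17F, was sparser. It reached 1.14, 0 and 0.219 CPM in mucosa 1, 2 and 3, and 0.419 to 5.59 CPM in the tumors (median 1.55). Tumors 5, 6 and 7 lay below mucosa 1, so the groups overlapped, and tumors 9 and 10 of mouse B were the highest. The log2 fold change of 2.17 (SE 1.02) did not pass the test (edgeR adjusted p = 0.0703). With the mouse as a block it was 2.40 and passed (adjusted p = 0.0325), as it did without mucosa 1 (4.11, adjusted p = 0.0121). At 0 CPM in mucosa 2, Il17f met the filter on low counts with the help of the tumors, so these p-values are no support.

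Il22 encodes IL-22. It measured 1.93, 0.0383 and 0.426 CPM in the mucosa libraries and 0.5 to 18.9 CPM in the tumors, with a median of 5.61. Tumors 5 and 6 fell below mucosa 1, and tumors 8 and 9 were the highest at 13.3 and 18.9 CPM. The log2 fold change was 3.15 (SE 1.11, edgeR adjusted p = 0.0205), and the call was lost without mucosa 2 (2.58, adjusted p = 0.067) or mucosa 3 (2.85, adjusted p = 0.0792). With 3 UMIs in mucosa 2, the gene passed the filter on low counts with the help of the tumors, so the call is no support. Il22 shares its sequence with the copy Iltifb, since the transcripts of the pair were 92.4% identical, and Iltifb itself held 21 UMIs in tumors and 7 in mucosa, so the Il22 counts are uncertain to the extent that the counting split or dropped shared reads.

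Il23a encodes the p19 subunit that is particular to IL-23. It measured 0.115, 0.115 and 0.069 CPM in mucosa 1, 2 and 3, from 23 UMIs in all, and 8.17 to 23 CPM in the tumors (median 13.3). All 10 tumors lay far above the mucosa, with the 4 tumors of mouse C between 8.17 and 12.4 CPM and tumor 10 of mouse B the highest. The log2 fold change was 7.19 (SE 0.48, edgeR adjusted p = 4.67e-08), the largest of the 8 genes, but with 8, 9 and 6 mucosal UMIs the gene passed the filter through the tumors alone and this p is no support. Il23r, the receptor subunit that binds this cytokine, measured 0.173, 0.0128 and 0 CPM in the mucosa and 0.283 to 1.39 CPM in the tumors (median 0.406), without overlap. Its log2 fold change was 3.18 (SE 0.84, edgeR adjusted p = 0.00398), from 337 UMIs in tumors and 13 in mucosa. Mucosa 1 held 12 of these 13, and without it, with 1 mucosal UMI left, the value was 6.07. This gene, too, passed the filter through the tumors, so its p is no support either.

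Il17ra encodes the receptor chain shared by several IL-17 cytokines. Its level was 5.66, 5.58 and 6.26 CPM in the 3 mucosa libraries and 21.6 to 55.3 CPM in the tumors (median 34.4). The mucosa libraries stood close together and every tumor was above them, the 4 tumors of mouse C (21.6 to 27.7 CPM) being the lowest. The log2 fold change was 2.59 (SE 0.30, edgeR adjusted p = 4.86e-06). The receptor gene Il22ra1 did not follow this, with 0.375, 0.881 and 0.874 CPM in mucosa and 0.27 to 1.09 CPM in tumors (log2 fold change -0.46, SE 0.35, edgeR adjusted p = 0.254). Il22ra2, whose product binds and neutralizes IL-22, measured 0.0864, 0.664 and 0 CPM in mucosa and 0.0787 to 0.911 CPM in tumors (0.25, SE 0.84, edgeR adjusted p = 0.806), and its direction turned without mucosa 1 (-0.16), mucosa 3 (-0.35) or tumor 10 (-0.10), while without mucosa 2 it was 2.86 and passed (edgeR adjusted p = 0.0266).

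In the tumors the UMIs of the 8 genes lay in cell groups that differed between genes and partly overlapped. Cells were clustered with the 8 genes and their listed relatives held out, and clusters were named from marker lists with the ending -like, so the levels by cluster are a description without a test. Most UMIs of Il17a, Il17f, Il22 and Il23r were in T and innate lymphoid clusters, those of Il23a were in neutrophils, Spp1 macrophages and epithelium, those of Il17ra were mostly in neutrophils and monocytes, and those of Il22ra1 were in epithelium. Il22ra2 was sparse, with 69 of its 188 UMIs in neutrophil-like cells.

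**Figure D2:**
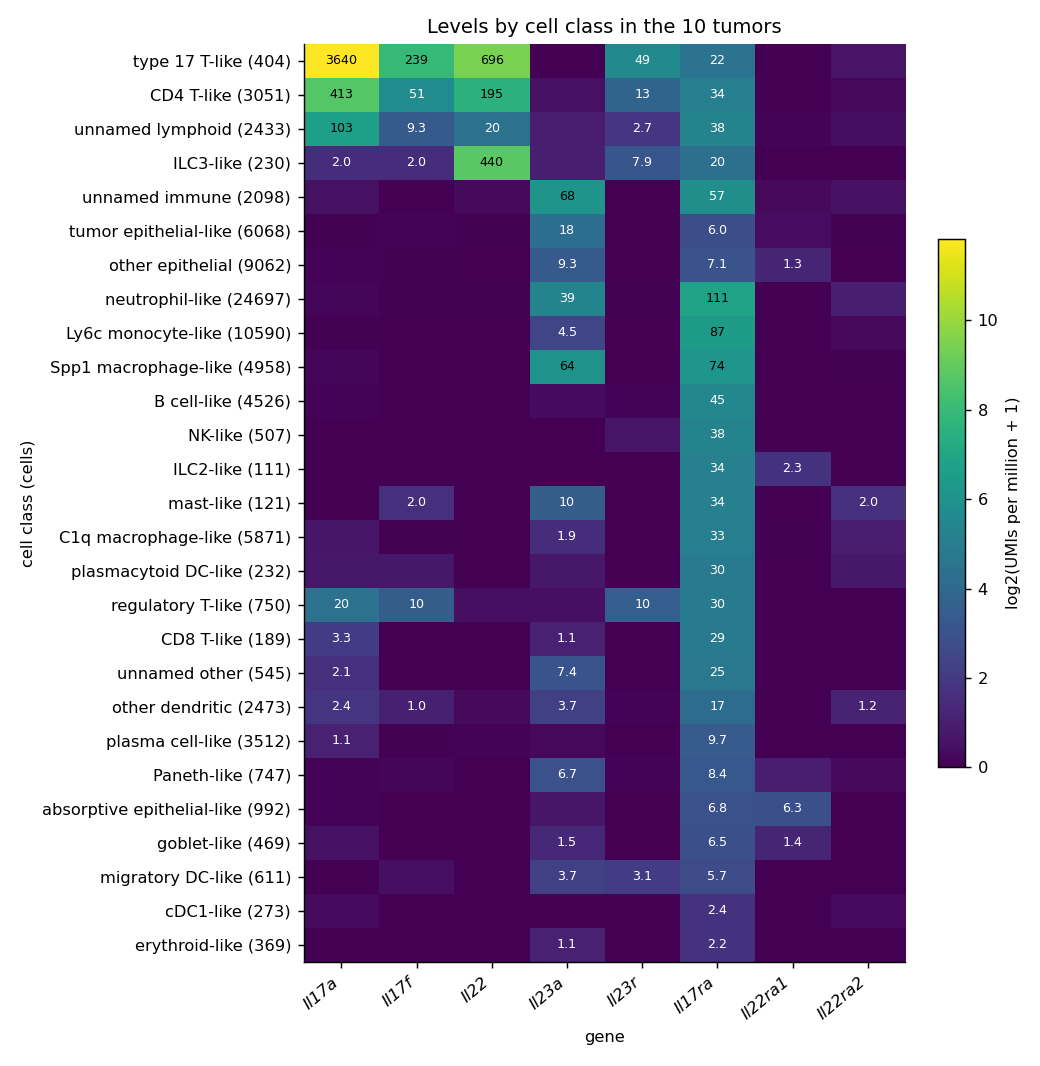
Levels of the 8 genes in the cell classes of the tumors with at least 100 cells, from the sum over all 10 tumors, with color for log2(CPM + 1), the CPM printed where it is at least 1, and the number of cells beside each class. The cytokines and Il23r are highest in the type 17 T-like class, Il23a in an unnamed immune cluster, Spp1 macrophage-like and neutrophil-like cells, Il17ra in neutrophil-like and monocyte-like cells, and Il22ra1 in epithelial classes.

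The type 17 T-like cluster was the leading source of Il17a. It held 404 tumor cells, was led by Trdv4, Cd163l1 and Blk, which mark IL-17-producing γδ T cells, and had an Il17a UMI in 56.9% of its cells. Its Il17a level in the tumors was 3640 CPM in the sum over tumors, with a range of 1380 to 8370 CPM and a median of 4050 over the 8 tumors with at least 20 such cells. It carried 53.1% of the Il17a UMIs of the tumors. A CD4 T-like cluster led by Cxcl3 and Ermn came next, with 1286 cells of which 26.3% had a UMI, a level of 655 CPM (152 to 1560 over tumors) and 31% of the UMIs. In mucosa the same type 17 T-like cluster had 35 cells, 215 CPM and 6.73% of the Il17a UMIs, and the largest part, 38%, was in a cluster of 167 lymphoid cells led by Gm14718, Tmem154 and Asb2 at 309 CPM.

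Il17f followed the same clusters in the tumors at lower levels. The type 17 T-like cluster had 239 CPM (13 to 769 over tumors) and 37.4% of the UMIs, and the Cxcl3 CD4 T-like cluster had 72.6 CPM and 36.7%. Il23r was likewise highest in the type 17 T-like cluster, at 48.7 CPM (9.61 to 98.1) with a UMI in 18.8% of cells. The Cxcl3 CD4 T-like cluster had 15.7 CPM of Il23r and regulatory T-like cells 10.5 CPM. A small lymphoid cluster led by Ifit1 had a UMI in 5 of 83 cells, and migratory dendritic-like cells held 4.75% of the Il23r UMIs. A cluster called ILC3-like, although it was led by Gzmc, Klrb1b and Ncr1, had 7.89 CPM of Il23r.

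Il22 was spread more unevenly. Its level in the type 17 T-like cluster was 696 CPM in the sum but had a median of only 55.3 CPM over tumors, with 0 CPM at the lowest, and it was 2380 and 3170 CPM in tumors 8 and 9. Only 13 of the 404 cells had an Il22 UMI. The Cxcl3 CD4 T-like cluster held 31.2% of the Il22 UMIs at 214 CPM, with a UMI in 79 of 1286 cells. Another CD4 T-like cluster, led by Tbc1d4 and Ramp3, held 21.1% at 172 CPM in the sum (median 65.4 over tumors), with a UMI in 59 of 1765 cells. The ILC3-like cluster held 10.4% at 440 CPM in the sum, with a UMI in 13 of 230 cells. Of these 446 UMIs 386 were in tumor 10 (2710 CPM), and the median over the 7 tumors with 20 or more such cells was 8.62 CPM. A small lymphoid cluster led by Ifit1 had 155 UMIs, all in 2 of its 83 cells. Of the 174 Il22 UMIs in mucosa, 135 were in 2 of the 6 ILC3-like cells, 112 in one cell of mucosa 1 and 23 in one cell of mucosa 3.

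The cytokine UMIs were concentrated in few cells, and this differed by gene. The 13225 Il17a UMIs of the tumors came from 861 cells, with a median of 4 UMIs per positive cell and 643 in the highest (a type 17 T-like cell of tumor 5), and the top 10 cells held 22.4%. The 4291 Il22 UMIs came from 194 cells, of which the top 10 held 60.1%, and one type 17 T-like cell of tumor 8 alone had 574. The Il17f UMIs came from 209 cells, of which the top 10 held 41.9%. Il23r was different, with 337 UMIs in 284 cells, so a cell with this gene mostly had a single UMI. A level of Il22 in one tumor can thus rest on a handful of cells.

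Over all lymphoid cells of the tumors, which include clusters without a UMI of these genes, cells with Il17a more often had other members. Of 793 cells with an Il17a UMI, 17.3% also had Il17f against 0.58% of the other lymphoid cells, 14.8% had Il23r against 2.05%, and 11.2% had Il22 against 1.35%. The Il17f cells lay mostly inside the Il17a cells, since 77.4% of 177 Il17f cells had an Il17a UMI. Of the 182 Il22 cells, 48.9% had Il17a. Within the type 17 T-like cluster, Il17a cells and the others were closer for Il23r (21.7% against 14.9%) and Il22 (3.48% against 2.87%), with Il17f at 16.1% against 4.02%. In the Cxcl3 CD4 T-like cluster the shares were 13.9% against 3.69% for Il23r, 13.3% against 3.59% for Il22 and 16.9% against 1.48% for Il17f. All these shares are given as a description, since they depend on cluster, on the depth per cell and on the sampling of few UMIs.

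The promoters of Il17a, Il17f and Il23r are shown because these genes share the type 17 T-like cluster and because within 250 bases before its start each holds the core of the half-site of nuclear receptors, AGGTCA, on one strand or the other, which reads as TGACCT where it lies on the strand opposite to the gene. The sequences are from RefSeq (GRCm38.p6), where 5 of the 8 genes were matched, and are written 5′ to 3′ on the strand of the gene with the matches in capitals. For Il17f the window ends 26 bases short at its far end, where it meets an exon of a longer transcript.
Il17a, chr1:20730655-20730904, + strand: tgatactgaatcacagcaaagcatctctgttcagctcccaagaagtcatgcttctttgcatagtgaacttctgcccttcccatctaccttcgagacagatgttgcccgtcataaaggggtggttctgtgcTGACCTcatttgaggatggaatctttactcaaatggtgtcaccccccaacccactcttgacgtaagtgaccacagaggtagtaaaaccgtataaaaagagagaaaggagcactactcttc
Il17f, chr1:20784271-20784494, - strand: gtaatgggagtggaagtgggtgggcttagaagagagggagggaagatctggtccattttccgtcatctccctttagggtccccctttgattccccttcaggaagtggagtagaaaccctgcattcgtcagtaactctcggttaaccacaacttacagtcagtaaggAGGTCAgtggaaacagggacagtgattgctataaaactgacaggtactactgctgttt
Il23r, chr6:67491856-67492105, - strand: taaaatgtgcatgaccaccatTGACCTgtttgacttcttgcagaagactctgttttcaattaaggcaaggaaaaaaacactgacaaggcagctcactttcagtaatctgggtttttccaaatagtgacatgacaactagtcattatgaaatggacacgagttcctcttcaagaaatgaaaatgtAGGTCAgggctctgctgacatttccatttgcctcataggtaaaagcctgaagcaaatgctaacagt
The Il17a match was on the opposite strand, 120 to 115 bases before the start. The Il17f match was on the gene's own strand, 58 to 53 bases before the start, and Il23r had a match on each strand. Over all 32851 promoter windows of this length, 14% held AGGTCA on either strand, so a match of these letters is a description and no evidence of binding. The Il22 window, which runs past the start of the gene in GENCODE, was left out. The Il22ra1 window held no AGGTCA, and the STAT-type motif TTCNNNGAA (7.02% of windows) and the AP-1-type motif TGACTCA (4.46%) were not found in any of the other 4 windows.

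To compare the cytokine source between tissues, UMIs were summed over T, NK and innate lymphoid clusters of each library. In these sums Il17a, Il17f, Il22, Il23r and Il17ra were each higher in tumors by edgeR's quasi-likelihood test, whereas Il23a, Il22ra1 and Il22ra2 had too few UMIs and did not pass the filter on low counts. Over all 10676 genes tested 42.1% were called, with 21.2% called higher. A gene that passes this filter only through the tumors has to differ, so the count of 5 is no support by itself. The lymphoid sums rested on 342 to 1043 cells in tumors and on 1465, 1468 and 1963 cells in mucosa, where 3804 of the cells were in intraepithelial T-like clusters, against 447 in tumors.

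Il17a per lymphoid UMI was 32.3, 9.17 and 30 CPM in mucosa 1, 2 and 3 and 67.9 to 757 CPM in the tumors (median 431). Every tumor was above every mucosa, with tumor 7 the lowest and tumor 2 the highest, and the log2 fold change was 4.22 (SE 0.65, edgeR adjusted p = 4.64e-05). Il22 was 22.4, 1.45 and 9.81 CPM in mucosa and 13 to 361 CPM in tumors (median 106), and only tumor 6, at 13 CPM, overlapped with the mucosa (log2 fold change 3.56, SE 0.82, edgeR adjusted p = 0.00189). Il17f was 11.9, 0 and 5.04 CPM in mucosa and 11.7 to 106 CPM in tumors (median 27.9), again with tumor 6 as the only overlap (2.59, SE 0.66, edgeR adjusted p = 0.0042). The receptor Il23r was 2.01, 0.482 and 0 CPM in mucosa and 6.85 to 18.3 CPM in tumors (median 8.59) without overlap (3.34, SE 0.51, edgeR adjusted p = 4.85e-05), and the value was 5.74 without mucosa 1. As over all cells, Il23r passed the filter on low counts through the tumors, so this p is no support. Il22, with 3 UMIs in mucosa 2, and Il17f, at 0 CPM in mucosa 2, passed it with the help of the tumors. Their p-values are no support either. Every tumor lay above every mucosa for 10.1% of the genes tested in these sums. Il17ra differed least, with 16.9, 14.5 and 25.2 CPM in mucosa against 19.7 to 44.9 CPM in tumors (1.01, SE 0.19, edgeR adjusted p = 4.05e-04).

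The intraepithelial T-like cells, which are abundant in mucosa, moved with this result. In mucosa 0 of 3804 such cells had a UMI of Il17a, Il17f, Il22 or Il23r, which allows a share of up to 0.0789%, while in tumors 9 of 447 held 468 Il17a UMIs, 347 of them in one cell of tumor 6. Summed over the 8 intraepithelial T markers, their level in the lymphoid sums was 12400 to 18000 CPM in mucosa and 1530 to 5620 CPM in tumors. Without these clusters Il17a was 80.3, 50.8 and 127 CPM in mucosa and 76.1 to 776 CPM in tumors, with a smaller log2 fold change of 2.39 that still passed (edgeR adjusted p = 0.00337). Il22 (1.93, edgeR adjusted p = 0.052), Il17f (0.97, adjusted p = 0.255) and Il17ra (0.53, adjusted p = 0.0557) did not pass. Il23r did (1.75, adjusted p = 0.0164), but with few mucosal UMIs it met the filter on low counts through the tumors, so this p is no support. Other marker lists moved with the lymphoid sums as well. Neutrophil markers reached 130 to 599 CPM in tumors and 5.7 to 7.24 CPM in mucosa, where Cxcr2 and Csf3r were at 0, and epithelial markers reached 51.5 to 181 CPM in tumors and 170 to 1950 CPM in mucosa. The 16 dissociation stress genes summed to 5880 to 8000 CPM in tumor and 2800 to 3040 CPM in mucosal lymphoid cells. Their part in the result was not tested.

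Counted as cells rather than UMIs, the share of lymphoid cells with an Il17a UMI was 1.1%, 0.614% and 0.73% in mucosa 1, 2 and 3 and 2.75% to 13.6% in the tumors (median 6.1%), after each cell was thinned to 1000 UMIs. In each of the 10 tumors the share exceeded that of the mouse's mucosa, and the mean difference within mice was 6.04 points (exact two-sided permutation test within mice, p = 0.0133, the smallest that 75 assignments allow, and adjusted p = 0.0178 over 4 genes). The differences of Il17f (1.06 points) and Il22 (1.09 points) were in the same direction in 10 of 10 tumors with the same adjusted p of 0.0178 by this exact test. Without the intraepithelial T-like clusters none of these calls held, with differences of 3.64 points for Il17a, 0.576 for Il17f and 0.424 for Il22 (exact permutation, adjusted p = 0.133, 0.107 and 0.178). The share with Il23r was 0.258% to 1.99% in tumors against 0.482%, 0.0877% and 0% in mucosa, a difference of 0.8 points that did not pass (exact permutation p = 0.08) but did without tumor 9 (1.09 points) or tumor 10 (0.512 points). The calls of the 3 cytokines were lost without any one of the mucosa libraries, when fewer assignments remain (exact permutation, adjusted p = 0.0533 to 0.0889). In B cells, which are not known as a source of these cytokines and were thinned likewise, 0 of 4396 tumor cells had a UMI of Il17a, Il17f or Il22, which allows a share of up to 0.0682%, and 1 had one of Il23r. Unthinned, a plasma cell-like cluster led by Iglc1 and Ighv9-3 had an Il17a UMI in 13 of 114 tumor cells. The other plasma cell-like clusters had one in 2 of 3222 and 1 of 176 cells, and the cause was not tested. The median depth was 3468 UMIs in lymphoid cells and 2232 in B cells of the tumors, against 1866 and 2178 in mucosa. Without thinning the differences were 9.06 points for Il17a, 2.04 for Il17f, 2.08 for Il22 and 3.36 for Il23r (exact permutation, adjusted p = 0.0133 for each).

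**Figure D3:**
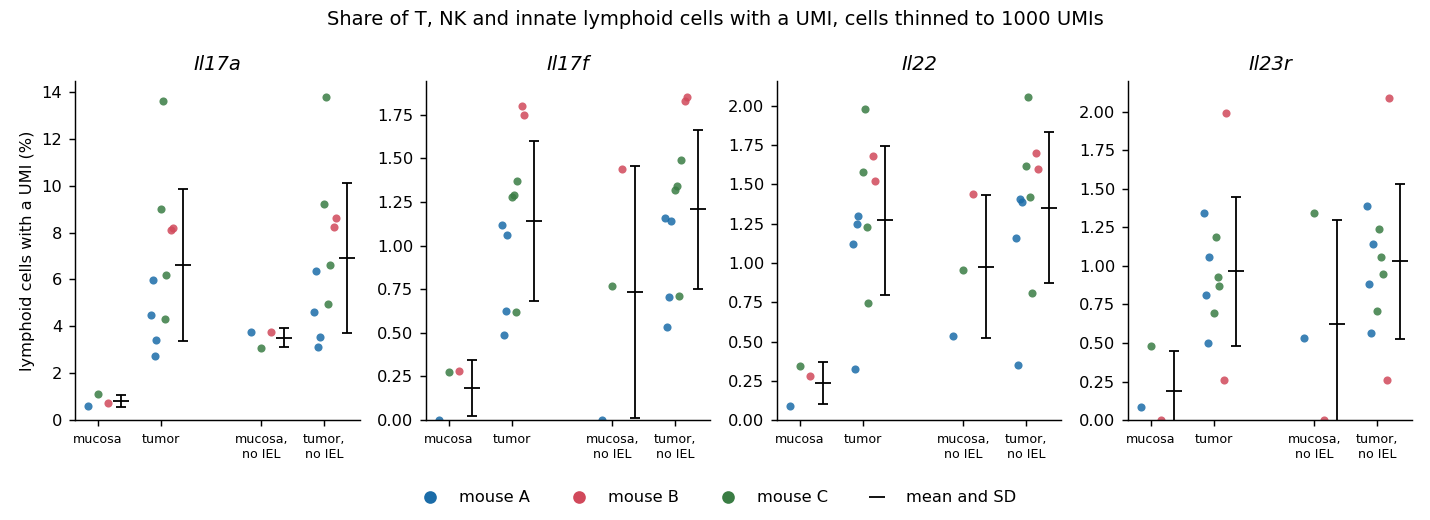
Percent of T and innate lymphoid cells with at least 1 UMI of Il17a, Il17f, Il22 or Il23r in each library after thinning to 1000 UMIs per cell, with all lymphoid clusters and without the intraepithelial T-like clusters (IEL), with one point per library colored by mouse and bars for the mean and SD, cut off at 0. With all clusters the 10 tumors lie above their own mucosa for each gene, and without the intraepithelial clusters this holds for 8 tumors for Il17a and Il22, 9 for Il17f and 6 for Il23r.

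Type 17 lymphocyte clusters themselves (type 17 T-like and ILC3-like) made up 0.407%, 0.117% and 0.122% of all cells in mucosa 1, 2 and 3, and 0.318% to 1.01% in the tumors (median 0.804%). This was 41 cells in mucosa and 634 in tumors, and 9 of 10 tumors were above their own mucosa. The mean difference was 0.528 points (exact two-sided permutation test within mice, p = 0.0267), and 7.22 points when taken as a share of lymphoid cells (p = 0.0133, exact permutation, 10 of 10 tumors). The first call was lost without any of the 3 mucosa libraries (0.45 to 0.632 points), when fewer assignments remain, or without tumor 6, 8, 9 or 10 (0.494 to 0.542 points). The clusters were built without the 8 genes, but their sizes depend on the makeup of each library.

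Genes of the type 17 lymphocyte program were mostly higher in the same lymphoid sums, which carry the shifts in intraepithelial and stress genes given above. There 10 of the 12 genes tested were higher in tumors and 1 was lower, against 21.2% called higher and 20.9% lower over all genes, with a list median log2 fold change of 1.98 against -0.01 over all genes tested. The largest were Irf4, a transcription factor of activated lymphocytes (3.36, SE 0.17, edgeR adjusted p = 1.65e-10), the nuclear receptor Rora (2.50, SE 0.21, adjusted p = 4.51e-08), the IL-1 receptor Il1r1 (2.41, SE 0.27) and the transcription factor Maf (2.28, SE 0.23). Ahr, a receptor for dietary and microbial ligands that sustains IL-22 production, was the one that fell (-0.77, SE 0.16, edgeR adjusted p = 9.27e-04). Il12rb1, the second chain of the IL-23 receptor, did not pass over all cells (0.46, SE 0.39, edgeR adjusted p = 0.297).

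Of the 6 cytokines known to induce or sustain type 17 cells, 4 were higher in tumors over all cells and 1 was lower, against 36% and 34% of all genes, in sums where mononuclear phagocytes are a far larger share of tumor cells. Il1a (9.78, SE 0.72) and Il1b (8.64, SE 0.55), which encode the IL-1 cytokines, Il6 (6.77, SE 0.77) and Tgfb1 (3.29, SE 0.26) rose, with edgeR adjusted p from 2.98e-08 to 4.1e-06. With 34 and 15 mucosal UMIs, Il1a and Il6 passed the filter on low counts through the tumors, so neither their p-values nor the count of 4 is support. Tnfsf15, which encodes the TNF-family cytokine TL1A, fell (-0.82, SE 0.31, edgeR adjusted p = 0.0299), but not when the tumors of each mouse were summed (adjusted p = 0.0898). With 1 library left out, its call was lost in 2 of 13 fits (edgeR adjusted p up to 0.252).

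Il23a had no single source in the tumors. Neutrophil-like cells held 30% of its UMIs at 39.4 CPM, an Spp1 macrophage-like cluster held 22.7% at 64.3 CPM (6.5 to 158 over tumors), and epithelial clusters held 38.2%. A small immune cluster of low depth led by Ccl3 and Csf1, which was left unnamed, had 68.2 CPM and 3.18% of the UMIs. In the epithelium, the largest part was in a tumor epithelial-like cluster at 18.4 CPM (7.94 to 34.3 over tumors, median 17.8), where 22.7% of 6068 cells had an Il23a UMI at a median depth of 16844 UMIs. In the Spp1 macrophage-like cluster, at a median depth of 6450 UMIs, 14.3% of 4958 cells had one, so the shares are not comparable and the level per UMI was higher in the macrophages. Ly6c monocyte-like cells had 4.51 CPM, C1q macrophage-like cells 1.93 and B cells 0.279, and the type 17 T-like cluster had 0. Unlike the lymphoid cytokines, Il23a was spread over 4864 cells, with 44 UMIs in the highest. In the mucosa 23 cells had 1 UMI each, 21 of them epithelial.

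Per epithelial UMI, Il23a was 0.136, 0.0952 and 0.0762 CPM in mucosa 1, 2 and 3 and 4.81 to 18.6 CPM in the tumors (median 12.4). Every tumor was above every mucosa, and the log2 fold change was 6.62 (SE 0.46, edgeR adjusted p = 2.65e-07). As over all cells, the gene passed the filter on low counts through the tumors alone, with 8, 7 and 6 UMIs in mucosa, so this p is no support. Of the 15504 genes tested in the epithelial sums 64.6% were called, with 34.1% called higher, and 33.9% had every tumor above every mucosa. When only epithelial clusters with at least 200 cells from both tissues were summed, a choice made after the data were seen that removes the tumor epithelial-like cells, the tumors had 0.326 to 4.36 CPM and the mucosa 0.0951 to 0.141 CPM, again without overlap. These are a goblet-like cluster, one led by Defb45 and Wfdc2 and an absorptive-like one led by Clca4b and Saa1, and their mix differed, since the goblet-like cluster made up 16.2% of 2888 cells in tumors and 69.7% of 3546 in mucosa. How many of all genes had no overlap in these sums was not counted. In that order the clusters held 10, 24 and 9 Il23a UMIs in tumors and 5, 1 and 0 in mucosa. Within each of them alone the Il23a difference did not pass (exact two-sided permutation within mice, p = 0.275 to 0.36, adjusted p = 0.463).

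Neutrophil markers were also higher in the tumor epithelial sums, at 187 to 870 CPM against 6.74 to 22.4 CPM in mucosa (7 of 7 genes with a UMI in both), and the 8 immune markers were at 34.3 to 91.7 CPM against 15.9 to 21.4. The ratio of Il23a to genes of these cells differed between the classes. For each 1000 UMIs of the neutrophil gene S100a8 there were 0.454 Il23a UMIs in neutrophils (0.184 to 0.906 over tumors), 128 in the tumor epithelial-like cluster (50.1 to 435), 4.55 in lymphoid cells and 1.22 in B cells. In the clusters shared with mucosa the same ratio was 0.643 (Clca4b cluster), 4.19 (Defb45 cluster) and 7.52 (goblet-like), which spans the range of the lymphoid and B cell values. For each 1000 UMIs of the macrophage gene Spp1 there were 41.7 in Spp1 macrophage-like cells, 23 in lymphoid cells and 61.2 in B cells. The same ratio was 265 in the Clca4b cluster, 353 in the Defb45 cluster, 909 in the goblet-like cluster (from 11 Spp1 UMIs) and 1070 in the tumor epithelial-like cluster. Within that cluster, cells with and without an Il23a UMI had a median of 2250 and 2270 CPM of the epithelial gene Epcam and 174 and 105 CPM of S100a8.

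Il12b, whose product p40 pairs with p19 to make IL-23, was in other cells. Its 2993 tumor UMIs came from 338 cells, mostly in clusters of the dendritic group. A cluster of 464 cells led by Fscn1, which marks migratory dendritic cells, held 17.5% (147 CPM). A cluster of 147 cells that met the migratory markers but was led by the neutrophil genes S100a9, S100a8 and Retnlg held 27.5% (523 CPM), and one of 452 cells led by hemoglobin genes held 35% (288 CPM). Epithelial cells held 3 of these UMIs, neutrophil-like cells 20, and Spp1 macrophage-like cells 6.01%. Of the 4864 tumor cells with an Il23a UMI, 6 also had Il12b, or 0.123%. Over all cells Il12b was 0.13, 0 and 0 CPM in mucosa and 0.425 to 9.11 CPM in tumors (log2 fold change 6.82, SE 1.23, edgeR adjusted p = 2.16e-04). All 9 mucosal UMIs were in mucosa 1, so the gene passed the filter through the tumors alone and this p is no support. Without that library the fitted value was 11.3, which rests on a mucosa at 0 and is no bound. In the wider IL-12 family list, 4 of the 7 genes tested were higher over all cells and none was lower, with a median log2 fold change of 2.53, against 36% called higher, 34% lower and a median of 0.02 over all genes. Il12b is among those called higher, and a gene that passes the filter through the tumors alone has to differ. Neither this count nor this median is therefore support.

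**Figure D4:**
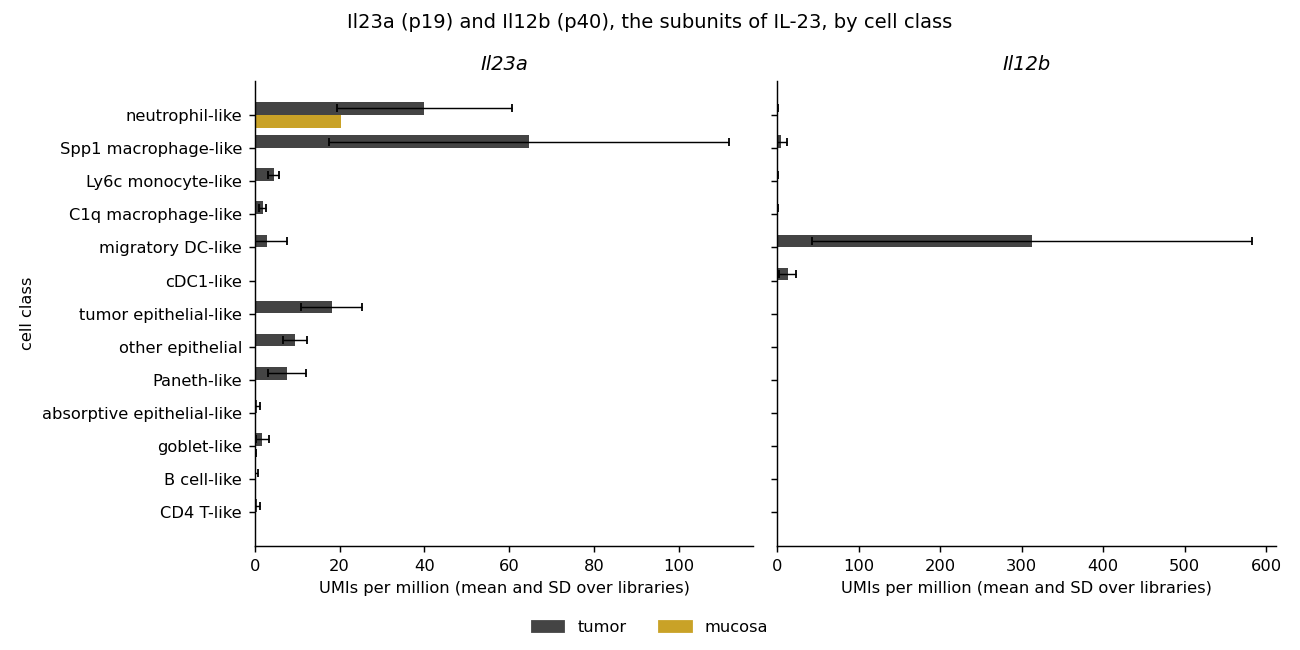
Mean level in CPM of the IL-23 subunits Il23a and Il12b by cell class in tumors and mucosa, with bars from 0 and the SD over libraries that hold 20 or more such cells. Of the classes drawn, which leave out the unnamed cluster led by Ccl3, Il23a is highest in Spp1 macrophage-like and neutrophil-like cells and present in tumor epithelium, Il12b is highest in the migratory dendritic-like class, which includes the cluster led by S100a9, and the mucosal neutrophil bar rests on 1 library and has no SD.

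Mononuclear phagocytes were too few in mucosa for a firm comparison, with 42, 70 and 105 cells. In their sums 12% of 12621 genes were called, with 8.25% called higher and 3.75% lower, and with DESeq2's test the split turned from 1041 higher and 473 lower to 793 and 1153. Il23a had 0 UMIs in the mucosa and 2617 in the tumors, where the level ran from 2.14 to 42.5 CPM. Against a floor of 3 counts over the group this is at least 4.95-fold higher in tumors. The edgeR adjusted p was 0.297, and 0.0367 with the mouse as a block, but the gene passed the filter on low counts through the tumors alone and is set against a count of 0, so neither value is support. Il17ra was 34.4, 31.1 and 68.7 CPM in mucosa and 32.4 to 85.8 CPM in tumors (log2 fold change 0.59, SE 0.33, edgeR adjusted p = 0.289). In mucosa, the 7 neutrophil markers in these sums reached 66.3 to 871 CPM, against 393 to 1090 CPM in tumors.

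Il22ra2 was the one member called lower in the mononuclear sums, at 12.1, 389 and 0 CPM in mucosa and 0 to 3.24 CPM in tumors (log2 fold change -7.09, SE 1.23, edgeR adjusted p = 0.00121). The call rested on 3 cells, since 28 and 22 of the 56 mucosal UMIs were in 2 cells of mucosa 2 and the other 6 in one cell of mucosa 1, and without mucosa 2 it was lost (-3.10, adjusted p = 0.371). In the tumors the 188 UMIs of Il22ra2 came from 133 cells, among them 5 of 246 dendritic cells led by Mgl2 (7.06 CPM), and neutrophil-like clusters at 0.976 and 0.965 CPM. One C1q macrophage-like cell of tumor 10 alone had 26 UMIs.

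Il17ra lay mainly on myeloid cells of the tumors. Neutrophil-like cells held 34.8% of its UMIs at 111 CPM and Ly6c monocyte-like cells 25.4% at 87.1 CPM, with up to 132 CPM in one neutrophil-like cluster (61.1 to 166 over tumors) and 130 CPM in one monocyte-like cluster (77.5 to 154), where 50.8% of 3193 cells had a UMI. The epithelium held 8.39% at 6.65 CPM. Its partner chain Il17rc lay the other way, with 97.5% of its UMIs in the epithelium (27.1 CPM) and 0.422 CPM in neutrophil-like cells. Of the tumor epithelial cells with an Il17ra UMI, 41.2% also had Il17rc, a share that depends on the depth per cell.

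Within the epithelium, Il17ra was 3.69, 4.81 and 4.58 CPM in mucosa 1, 2 and 3 and 4.99 to 8.84 CPM in the tumors (median 6.53). No tumor overlapped with the mucosa, yet the lowest tumor was close to mucosa 2, and the log2 fold change of 0.35 (SE 0.16) did not pass (edgeR adjusted p = 0.0787). Of the 8 genes, Il23a, Il17ra and Il22ra1 passed the filter on low counts in the epithelial sums. Il17ra passed with the mouse as a block (0.37, adjusted p = 0.0163), in the sums of the clusters shared by both tissues (0.58, adjusted p = 0.0398), and without tumor 1 (0.39, adjusted p = 0.0462) or tumor 2 (0.38, adjusted p = 0.0482). Within each of the 3 shared clusters alone it did not pass (exact two-sided permutation within mice, adjusted p = 0.613 in the Clca4b, 0.0599 in the Defb45 and 0.463 in the goblet-like cluster), with 6 of 10, 10 of 10 and 6 of 8 tumors above their own mucosa. In the Defb45 cluster p was 0.0133 by this permutation test, the smallest that 75 assignments allow, so its adjusted p over 9 tests cannot decide. Il17rc fell, with 36.9, 61.8 and 55.3 CPM in mucosa and 20.8 to 37.4 CPM in tumors (-1.18, SE 0.17, edgeR adjusted p = 5.57e-05), but not in the shared clusters (-0.36, adjusted p = 0.132).

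Il22ra1 was nearly all epithelial, with 97.9% of its tumor UMIs there. Its highest level in the tumors was in an absorptive epithelial-like cluster led by Clca4b and Saa1, at 6.39 CPM and 26.1% of the UMIs. The largest part, 36.5% at 1.3 CPM, was in an epithelial cluster led by Gm26917 and Sprr2b. That cluster also held 12.7% of the Il23a UMIs of the tumors, at 12.8 CPM. In the tumor epithelial-like cluster, the main epithelial place of Il23a, Il22ra1 was 0.319 CPM. Over all epithelial cells it was 0.441, 0.938 and 0.939 CPM in mucosa and 0.684 to 2.32 CPM in tumors (median 1.02), with overlap (log2 fold change 0.32, SE 0.37, edgeR adjusted p = 0.456). In the clusters shared by both tissues it was 0.285, 1.48 and 1.07 CPM in mucosa and 1.63 to 5.03 CPM in tumors without overlap (1.44, edgeR adjusted p = 0.0241). How many of all genes had no overlap in those clusters was not counted. The mix of these clusters, given above, differed between the tissues, and their Il22ra1 levels in mucosa ran from 0.531 CPM in the goblet-like to 3.63 CPM in the Clca4b cluster, so the sums do not compare like cells. Within the Clca4b cluster alone, the mucosa libraries had 0, 3.78 and 3.73 CPM, from 23, 329 and 194 cells, and the tumors 3.82 to 10.5 CPM (median 7.63). All 10 tumors were above their own mucosa there, with a mean difference of 4.8 CPM (exact two-sided permutation within mice, p = 0.0133, adjusted p = 0.0599 over 9 tests, chosen after the data were seen). This p is the smallest that 75 assignments allow. After adjustment it passes only if enough of the other tests reach that floor too, so the adjusted p cannot decide. In the Defb45 cluster 8 of 10 tumors were above their own mucosa (exact permutation, adjusted p = 0.24), and in the goblet-like cluster 4 of 8 were, with 4 tumors at 0 (adjusted p = 0.613).

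**Figure D5:**
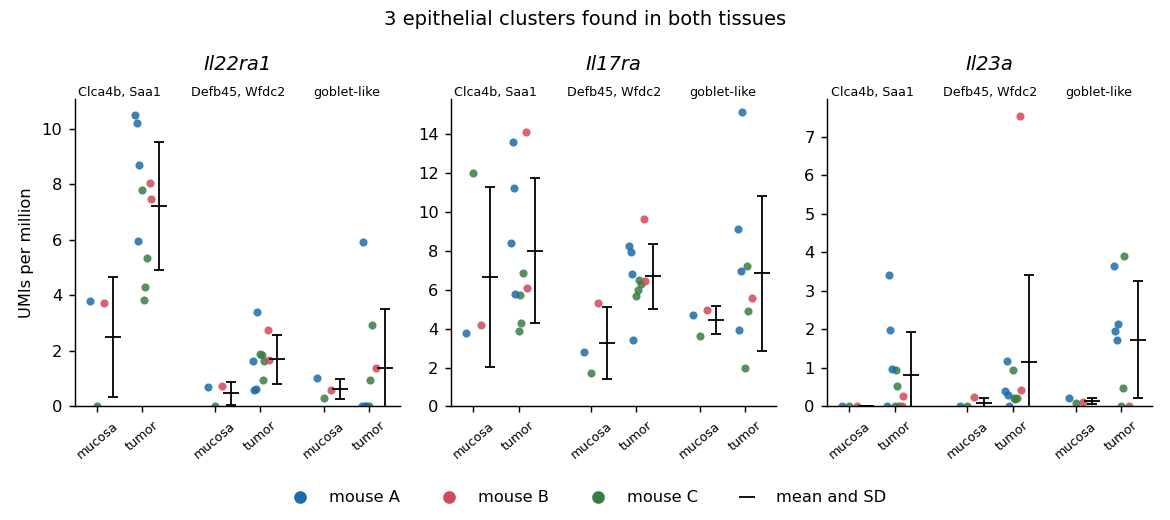
Levels of Il22ra1, Il17ra and Il23a in CPM in 3 epithelial clusters with cells of both tissues, led by Clca4b and Saa1, led by Defb45 and Wfdc2, and goblet-like, with one point per library colored by mouse and bars for the mean and SD, cut off at 0. In the Clca4b cluster the Il22ra1 points of the 10 tumors (3.82 to 10.5 CPM) lie above those of the 3 mucosa libraries.

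The partner chain Il10rb was detected in 47.2% of the tumor epithelial cells with an Il22ra1 UMI and in 26.6% of all tumor epithelial cells, shares that depend on the depth per cell. It was 37.1, 33.3 and 34.2 CPM in the mucosal epithelium and 19.8 to 33.3 CPM in that of the tumors and fell by 0.82 on the log2 scale (SE 0.15, edgeR adjusted p = 3e-04), while over all cells it rose (0.61, SE 0.12, edgeR adjusted p = 4.2e-04). Of the other IL-17 family genes, 2 of the 7 tested in the epithelium were higher and 3 lower, against 34.1% and 30.6% of all genes, with a median of -0.28 against 0.04 over all genes. Il17c, an epithelial IL-17 cytokine, was higher (3.32, SE 0.82, edgeR adjusted p = 0.00296), which is no support since it had 3 UMIs in mucosa and passed the filter through the tumors, and the receptor family member Il17rd rose (2.34, SE 0.16, edgeR adjusted p = 1.91e-07). Il17re, the receptor chain for IL-17C, fell (-1.74, SE 0.28, edgeR adjusted p = 1.37e-04), but not in the shared clusters (-0.03), and the adaptor Traf3ip2 fell by 0.28 (edgeR adjusted p = 0.043), a call that was lost with the mouse as a block (adjusted p = 0.0505) and without any one of 8 of the 13 libraries (mucosa 1 and 2 and tumors 2 to 6 and 9), where the adjusted p reached 0.264 without mucosa 1.

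Genes downstream of the receptors were called in both directions in the epithelium. Of the 8 receptor-proximal genes 3 were higher (Socs3, the feedback inhibitor of STAT3, by 1.14, Stat3 by 0.71 and Jak2 by 0.52, with SE 0.30, 0.11 and 0.12) and Jak1 was lower (-0.37, SE 0.10). Of the 20 epithelial genes known to be induced by IL-17 or IL-22, 8 were higher and 8 lower, against 34.1% and 30.6% of all genes, with a median log2 fold change of 0.43. The neutrophil-attracting chemokine genes Cxcl2 (6.94, SE 0.55, edgeR adjusted p = 5.84e-07) and Cxcl1 (5.64, SE 0.70, adjusted p = 1.72e-05), the siderophore-binding Lcn2 (6.19, SE 0.68, adjusted p = 6.46e-06) and S100a9 (5.97, SE 0.96, adjusted p = 1.22e-04) rose. S100a9 is itself one of the neutrophil markers given above for these sums, and its value ran from 5.43 to 7.97 with 1 library left out. The antimicrobial genes Retnlb (-5.42, SE 0.76), Reg3b (-3.99, SE 0.93) and Reg3g (-2.21, SE 0.63) fell, as did the acute-phase gene Saa3 (-1.94, SE 0.65, edgeR adjusted p = 0.0171). With 1 library left out, the Saa3 call was lost in 2 of 13 fits (edgeR adjusted p up to 0.134) and the Reg3g call in 1 (up to 0.101). Reg3b, Reg3g and Saa3 turned in the clusters shared by both tissues, where Reg3b was 2.30 (adjusted p = 0.19), Reg3g 2.53 (adjusted p = 0.0992) and Saa3 2.52 (adjusted p = 0.0299). Cxcl2 (6.00, edgeR adjusted p = 6.29e-04), Cxcl1 (2.88, adjusted p = 0.016) and Retnlb (-3.60, adjusted p = 0.0037) kept direction and call there, and Lcn2 (1.98, adjusted p = 0.0548), Stat3 (0.29, adjusted p = 0.0813) and Socs3 (0.38, adjusted p = 0.473) lost theirs. The 16 dissociation stress genes summed to 3240 to 6670 CPM in tumor epithelium and 1770 to 2020 in mucosal epithelium, and their part in these results was not tested.

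The genes whose levels were most like those of each member across 58 tumor clusters were found by Pearson correlation of log2(CPM + 1) over 15889 genes, as a description over clusters that share libraries and depth. For Il17a they were 1700012B07Rik (r = 0.94), Msc (0.93) and Gldc (0.91), and for Il17f Tctex1d1 (0.88), Il23r (0.87) and 1700012B07Rik (0.86). For Il22 they were Il23r (0.86), Olfr60 (0.81) and Prr29 (0.80), and for Il23r Prr29 (0.90), Il17f (0.87) and Il22 (0.86). Il23r was thus among the 3 nearest to both Il17f and Il22, whereas none of the 8 genes was among the 3 nearest to Il17a. Il23a was nearest to Lcn2 (0.78), Rhov (0.76) and Acod1 (0.74), Il17ra to Slfn8 (0.82), Adgre5 (0.81) and Klf13 (0.80), and Il22ra1 to Ptprh (0.86), Vstm5 (0.85) and Gm48809 (0.82). The genes nearest to Il22ra2 reached only 0.60 (Gm9465), 0.59 (Gm41611) and 0.55 (Gm17749).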

How the data were processed

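The study sequenced 13 libraries with the Chromium 3′ v3.1 kit, which tags transcripts with UMIs. With Cell Ranger (6.0.0, and the genome build mm10, in the submitters' processing notes) the authors obtained and deposited the UMI counts per gene and barcode without normalization. Members and gene lists were chosen with earlier results of these data known. Barcodes with fewer than 500 UMIs, fewer than 200 genes or 25% or more of mitochondrial UMIs were dropped. Likely doublets were removed by a simulated-doublet score, up to 0.8% per 1000 barcodes in each library. Cells were clustered on 2000 variable genes, 30 principal components and 20 neighbors (Leiden, resolution 1, seed 11), without the 8 genes and the listed relatives, and clusters were named from marker lists with thresholds set after their profiles were seen. Named genes were the 8 members, partner genes, at most 4 higher and 4 lower genes of each list past an adjusted p of 0.05, and the 3 genes most like each member. One gene that this rule names is not reported here. Clusters and markers beyond this rule were named after their values were seen.

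Counts were summed per library and cell group, filtered with filterByExpr, scaled by TMM and tested with edgeR 4.0.16 (quasi-likelihood test, Benjamini-Hochberg over all genes tested), tumor against mucosa, each library as a sample. DESeq2 1.42.0, the mouse as a block, other filters and each library left out were alternatives. Levels are CPM of the deposited counts. A cell group entered with at least 20 cells in a library. Shares were compared by exact two-sided permutation within mice (75 assignments). The depth of 1000 UMIs used for thinning was set after cluster depths were known. Tumors pair with the mucosa of the same mouse. Deviations from group means, across genes, correlated within mice A, B and C with r = 0.092, 0.057 and 0.097 in all cells, 0.124, 0.131 and 0.254 in epithelium, 0.264, 0.079 and 0.22 in lymphoid cells and 0.102, -0.077 and 0.119 in mononuclear phagocytes. In units of 1000000, each library held 57.2 to 116 UMIs, and limits from counts of 0 (3 counts) cover counting error only. The tests were checked on simulated counts. Versions were Python 3.11.15, R 4.3.3, leidenalg 0.10.2 and scikit-learn 1.9.0.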

Additional observations from a re-analysis of the deposited data

Results flagged for a closer look

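In 5 of 24 groups of 10 tumor libraries, 1 library stood apart from the rest by Dixon's criterion, which chance alone meets in about 1 in 20 groups. Over all cells, tumor 10 was apart for Il23r at 1.39 CPM (next highest 0.838), for Il22ra1 at 1.09 CPM (next highest 0.609) and for Il22ra2 at 0.911 CPM (next highest 0.366). In the mononuclear sums tumor 10 was again apart for Il22ra2 at 3.24 CPM (next highest 1.14), and 26 of its UMIs were in one C1q macrophage-like cell. In the lymphoid sums tumor 9 was apart for Il17f at 106 CPM (next highest 55.9), and the tumor cell with the most Il17f UMIs, 150, was a CD4 T-like cell of that tumor.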

How the results depend on the processing

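Counts of called genes moved by over 1.5 times in epithelial clusters of both tissues (4004, against 10023), in lymphoid sums without intraepithelial clusters (2788, against 4492) and in mononuclear sums with tumors of a mouse summed (939, against 1514). Leaving out one library gave 11105 to 12269 calls over all cells, 8744 to 10328 in epithelium, 3607 to 4730 in lymphoid and 692 to 1669 in mononuclear sums (692 without mucosa 1). Shares without intraepithelial clusters differed by 3.64 points for Il17a, 0.576 for Il17f and 0.424 for Il22 (exact permutation, adjusted p = 0.133, 0.107 and 0.178). The Il23r share passed unthinned (3.36 points) and at 1500 UMIs (1.13 points). With one library left out, the differences were 5.36 to 7.29 points for Il17a, 0.843 to 1.18 for Il17f, 0.976 to 1.18 for Il22, 0.512 to 1.09 for Il23r and 0.45 to 0.632 for type 17 clusters. Directions turned for Il22ra2 over all cells (-0.35 to 2.86 with one library left out), for Il12rb1 in mononuclear sums (-0.70 to 7.77) and in shared epithelial clusters for Reg3b (2.30), Reg3g (2.53) and Saa3 (2.52). The cause was not tested. The replicate block by mouse changed 4 of 63 results, making Il17f over all cells (2.40, adjusted p = 0.0325, no support as given above), Il17ra in epithelium and Il23a in mononuclear sums (no support, with 0 UMIs in mucosa) pass and Traf3ip2 fail. By DESeq2, Il17f over all cells passed (2.19, adjusted p = 0.0421). Of 118 values of the members under settings other than leaving out a library, 107 kept direction and call. By DESeq2 the median of all genes was 0.30 over all cells, 0.28 in epithelium and -0.64 in mononuclear sums, against 0.02, 0.04 and 0.15 by edgeR. The depth limits Il22ra1, Il22ra2 and Il23r most, with 329, 188 and 337 tumor UMIs.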

Other observations

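Over all cells, where 36% of all genes tested were called higher and 34% lower, the other gene lists of the axis were called as follows, in sums that also carry the different makeup of the tissues. All 8 receptor-proximal genes (list median log2 fold change 1.06) and all 5 tested genes of the IL-10 family were higher in tumors. Of the 6 tested IL-17 family genes 1 was higher and 4 were lower, among them the epithelial receptor chain Il17rc (-1.94, SE 0.18). Of the 12 type 17 program genes 8 were higher and 2 lower, and of the 20 epithelial genes known to be induced by IL-17 or IL-22, 11 were higher and 8 lower (edgeR, adjusted p under 0.05). A gene that passes the filter on low counts through the tumors alone has to differ, so these counts are no support by themselves. In the lymphoid sums, which carry the shift in intraepithelial cells given above, the IL-27 and IL-35 subunit Ebi3 rose (3.94, SE 0.53, edgeR adjusted p = 1.12e-05). Its value ran from 3.1 to 5.63 with 1 library left out.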
